A study of Mus musculus with 3 samples.

Results

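Immediate early genes (IEGs) are the genes that neurons switch on first when they become active, and 43 of them were followed here through ribosome profiling of primary mouse cortical neurons. They were chosen by symbol from knowledge of the activity response, at a time when earlier results of these data were known. Each was represented by its longest transcript listed in all of the 5′ UTR, CDS and 3′ UTR tables. All 43 were found among the 20823 genes with such a transcript, and they comprise 22 transcription factors and 21 effectors.

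In ribosome profiling, mRNA pieces shielded by ribosomes during nuclease digestion are sequenced, so that a count reports ribosomes on an mRNA region. Such a level combines mRNA amount and translation, and in these bulk cultures fewer expressing cells and less mRNA per cell cannot be told apart. The 3 libraries came from neurons left untreated (WT), exposed to cycloheximide during 2 min (Chx), or exposed to harringtonine during 2 min before a brief cycloheximide pulse (Harr). Cycloheximide stops elongation, and harringtonine traps ribosomes at start codons and lets those farther along the CDS finish and leave. Each library pooled 3 dishes of cells grown in Neurobasal with B27 and Glutamax, and buffers after harvest held cycloheximide for all of them. There is 1 library a treatment, so no difference below has a replicate check and no test was possible. The treatment labels name no depolarizing agent for any of the 3 libraries, but the free-text descriptions of all 3 call the neurons "dep" and name fractions of another experiment, so whether these cultures had been depolarized cannot be told from the labels. No library pair contrasts active with silent neurons, and induction by activity is not measured here.

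An IEG is transcribed within minutes of synaptic input, without new protein synthesis, because the factors that bind its promoter are already in the nucleus and are activated by calcium and MAP kinase signaling. IEG mRNAs and proteins are typically short-lived. The transcription factors among them, such as the AP-1, EGR and NR4A families, drive a later wave of genes, whereas the effectors act directly on synapses, kinase signaling, G proteins or mRNA decay.

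The 43 genes held 117922 of 20212047 CDS reads under Chx (0.583%), 24305 of 3774621 under Harr (0.644%) and 76556 of 16673134 in WT (0.459%). The summed level of 8 neuronal marker genes was between 8980 and 10300 reads per 1000000 CDS reads in the 3 libraries. The 4 astrocyte markers summed to between 204 and 386, the 4 endothelial and stromal markers to between 21.3 and 26.2, the 4 oligodendrocyte markers to between 5.56 and 11.5, with Mobp and Mog at 0 reads in all libraries, and the 4 microglial markers to between 1.32 and 2.87. Their part in the results was not tested. Levels are given as reads per kilobase of CDS per 1000000 CDS reads (RPKM), and errors after ± are standard errors from counting alone. Of the 43 genes, 39 reached 100 CDS reads over the 3 libraries together and entered the ratios between libraries. The other 4 were Fosl1 (38 reads under Chx, 5 under Harr and 19 in WT), Klf2 (38, 8 and 21), Klf4 (18, 7 and 5) and Zfp36 (16, 0 and 18), and their ratios are not read.

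Footprints of a ribosome on a start codon are counted a few bases upstream of it, because the authors counted each read at its 5′ end. The bases around the annotated start codon are therefore shown first for the 5 IEGs with the most 5′ UTR reads in Harr, the treatment that holds initiating ribosomes, followed by 4 that had the lowest odds ratio of 5′ UTR to CDS reads in Harr against WT or Chx and at least 10 reads in each region. Capitals mark the annotated start codon, coordinates are those of mm10, and the windows of Nr4a3 and Nr4a1 span an intron. Choice and windows are those of the longest transcripts. On the transcript with the most reads, Nr4a1 has other bases before the start codon and a higher odds ratio, given below.
Nr4a3, chr4:48049116-48051262, plus strand: agataccctccagatATGccctgcgtgcaa
Fosl2, chr5:32136689-32136718, plus strand: cccccaccgcggatcATGtaccaggattat
Fos, chr12:85474025-85474054, plus strand: ccccaaacttcgaccATGatgttctcgggt
Jun, chr4:95051257-95051286, minus strand: gtgacggaccgttctATGactgcaaagatg
Plk2, chr13:110395162-110395191, plus strand: ggtggcgaggcaacgATGgagctcctgcgg
Nr4a1, chr15:101258414-101270099, plus strand: tcacccagagtggagATGccctgtattcaa
Plk3, chr4:117133850-117133879, minus strand: cgccgcgccgtccgcATGgagcccgccgcc
Jund, chr8:70699043-70699072, plus strand: cgggggaaggtggggATGgaaacgcccttc
Rgs2, chr1:144004104-144004133, minus strand: cgcgggagtctgagaATGcaaagtgccatg

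A transcript sequence of matching length was found for 42 of the 43 IEGs, all but Ier2. A G directly after the start codon, part of the favored context for initiation, was present in 13 of these 42 (31.0%) and in 11 of the 38 with at least 100 CDS reads (28.9%), against 52.6% of the 11406 genes with 100 CDS reads and a sequence. It was present in 4 of 22 transcription factors (18.2%) and in 9 of 20 effectors (45.0%). A purine at the third base before the start codon was present in 34 of 42 (81.0%), against 86.6% of all genes. An ATG in the 5′ UTR was present in 20 of the 42 IEGs (47.6%) and in 54.1% of all genes. The IEG 5′ UTRs held 3.49 such ATGs per kilobase, compared with 6.41 over all genes. These sequence counts are descriptions and were not tested.

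CDS levels of the IEGs covered more than 2 orders of magnitude (the plot of CDS levels by library). Among the 39 genes the median level was 61.6 RPKM under Chx, 70.0 under Harr and 45.6 in WT, above the medians of all genes with 100 CDS reads, which were 22.0, 20.7 and 21.2. Rgs2, a regulator that speeds GTP hydrolysis by G protein alpha subunits, had the highest level in each library, at 1250 RPKM under Chx, 1170 under Harr and 1100 in WT. The AP-1 factors Fosl2 and Fos followed. Fosl2 had 515 RPKM under Chx, 577 under Harr and 453 in WT, and Fos had 539, 544 and 376. Nr4a3, an orphan nuclear receptor, had 300, 402 and 267 RPKM, and Klf6, a zinc finger factor, had 187, 385 and 176. Of these, Fosl2, Fos, Nr4a3 and Klf6 were highest in Harr, Fos by less than the counting error. The place of Harr depends on the scale. Per CDS read the log2 ratio of Klf6 between Harr and Chx was 1.04, and per aligned read of the library it was 0.49, while Fosl2 (-0.38), Fos (-0.53) and Nr4a3 (-0.13) were then higher in Chx.

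**Figure D1:**
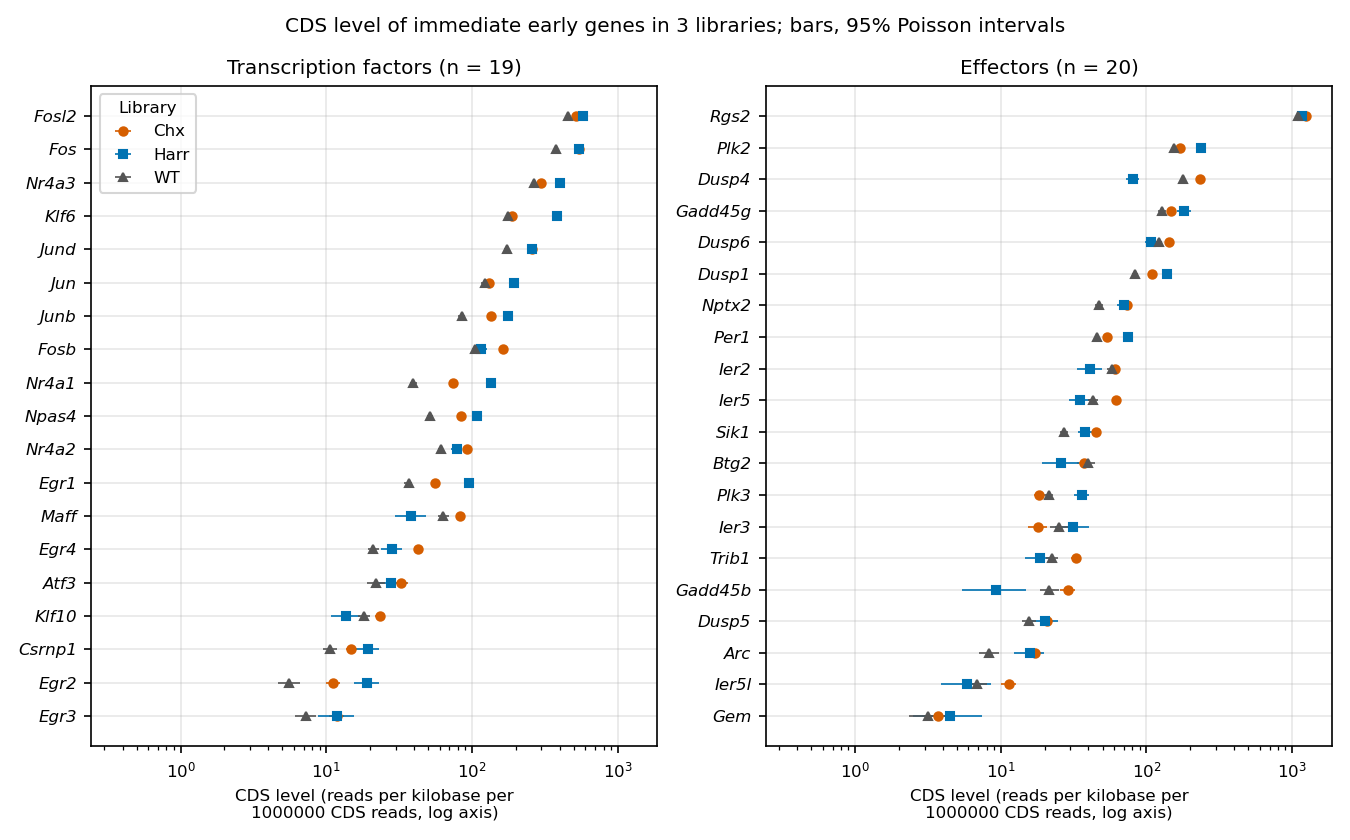
CDS level of the 39 IEGs with at least 100 CDS reads, in reads per kilobase per 1000000 CDS reads on a log axis, for 19 transcription factors and 20 effectors; each point is 1 library and bars are 95% Poisson intervals. Rgs2 lies highest, at 1100 to 1250, Gem lies lowest at 3.17 to 4.48, and most WT points lie to the left of the Chx points.

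The other members of the 12 with the highest mean level were spread over both classes. The AP-1 subunits Jund (259 RPKM under Chx, 257 under Harr and 174 in WT), Jun (132, 194 and 122), Junb (135, 176 and 85.1) and Fosb (164, 115 and 105) were lowest in WT per CDS read, and per aligned read Fosb was lowest in Harr. Plk2, a kinase that acts in homeostatic synaptic weakening, had 169, 236 and 155 RPKM. Dusp4, a nuclear phosphatase of MAP kinases, had 232, 80.6 and 178, with Harr far below the other two. Gadd45g, a stress sensor that binds a MAP kinase kinase kinase, had 147, 180 and 128. Arc, the synaptic IEG that governs AMPA receptor endocytosis, was among the lowest, at 17.2 RPKM under Chx, 15.8 under Harr and 8.31 in WT.

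The first comparison asked how IEG levels differed between cycloheximide and no drug, the pair that differs by 2 min of elongation arrest before harvest. The level was at least 1.5-fold higher in Chx for 13 of 39 IEGs (33.3%), compared with 1.99% of all 11459 genes tested. None of the 39 was at least 1.5-fold lower, compared with 1.61% of all genes. The median log2 ratio was 0.42 over the IEGs and 0.03 over all genes. A log2 ratio above 0 was found for 36 of 39 IEGs, against 54.8% of all genes. The genes were chosen with earlier results of these data known, so these shares describe the list and are no independent check.

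The median ratio was larger for transcription factors than for effectors in this pair. Of the 19 factors tested, 9 were at least 1.5-fold higher in Chx and all had a log2 ratio above 0, with a median of 0.58 and a range from 0.09 to 1.02. Of the 20 effectors, 4 were at least 1.5-fold higher and 17 had a ratio above 0, with a median of 0.31 and a range from -0.49 to 1.05. The ranges of the classes overlapped, and the difference between the classes was not tested.

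All 4 EGR factors, zinc finger proteins that bind GC-rich promoter sites, passed 1.5-fold. Egr4 had 1246 CDS reads under Chx, 153 under Harr and 505 in WT, or 42.9, 28.2 and 21.1 RPKM, a log2 ratio between Chx and WT of 1.02 ± 0.08. Egr2, which had fewer reads (318, 102 and 131), had 11.1, 19.1 and 5.56 RPKM and a ratio of 1.00 ± 0.15. Egr3 (0.70 ± 0.15) and Egr1 (0.61 ± 0.06) were also higher in Chx. The KLF factors with enough reads stayed below 1.5-fold, at 0.36 ± 0.09 for Klf10 and 0.09 ± 0.04 for Klf6.

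The NR4A receptors, which act without a known endogenous ligand, differed among themselves. Nr4a1 had 2707 CDS reads under Chx, 923 under Harr and 1191 in WT, or 74.2, 135 and 39.6 RPKM, a log2 ratio between Chx and WT of 0.91 ± 0.05. Nr4a2 reached 0.60 ± 0.04, and Nr4a3, with the most reads of the 3, reached 0.17 ± 0.02. Npas4, a neuron-restricted bHLH-PAS factor, had 84.2, 109 and 51.6 RPKM and a ratio of 0.71 ± 0.04. Among the 8 AP-1 and related bZIP factors the range was from 0.12 ± 0.04 (Jun) to 0.66 ± 0.05 (Junb), and only Junb and Fosb (0.64 ± 0.04) passed 1.5-fold.

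Of the effectors, both synaptic proteins passed. Arc had 415 CDS reads under Chx, 71 under Harr and 165 in WT, a log2 ratio between Chx and WT of 1.05 ± 0.13, the highest of the 38 IEGs with at least 200 reads in this pair. Nptx2, a secreted pentraxin that clusters AMPA receptors, had 74.1, 70.0 and 47.0 RPKM and a ratio of 0.66 ± 0.06. Sik1, a kinase of CRTC coactivators, had 0.74 ± 0.05, and Ier5l had 0.72 ± 0.15. The 4 MAP kinase phosphatases lay between 0.22 and 0.42. The only ratios below 0 were those of Ier3 (17.9, 31.3 and 25.2 RPKM in Chx, Harr and WT; -0.49 ± 0.15), the kinase Plk3 (18.3, 35.9 and 21.3; -0.22 ± 0.08) and Btg2, an antiproliferative factor that promotes deadenylation (37.3, 26.1 and 39.5; -0.08 ± 0.11).

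Between Chx and WT, genes before and after the IEGs in the pathway had medians nearer to 0. Of 22 upstream genes, which encode factors and kinases that act on IEG promoters, such as Creb1, Srf and Mef2c, none passed 1.5-fold in either direction between Chx and WT, and their median log2 ratio was 0.01. Creb1 had 42.2, 40.1 and 45.6 RPKM in Chx, Harr and WT, and Srf had 9.24, 7.52 and 7.05. Of 12 genes of the later response, 1 passed, Inhba (44.4, 50.3 and 28.5 RPKM; 0.64 ± 0.07), and their median was 0.21. Bdnf, the activity-regulated neurotrophin, had 287, 368 and 231 RPKM and a ratio of 0.31 ± 0.03. Between Harr and WT the medians were 0.08 upstream and 0.39 later, beside 0.50 for the IEGs. In that pair 4 of 22 upstream and 6 of 12 later genes were at least 1.5-fold higher, against 20.2% of all genes. In each list 3 were at least 1.5-fold lower, against 25.8%. Between Harr and Chx the medians were 0.06 and 0.07, beside -0.01 for the IEGs. Both lists were chosen with earlier results of these data known.

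**Figure D2:**
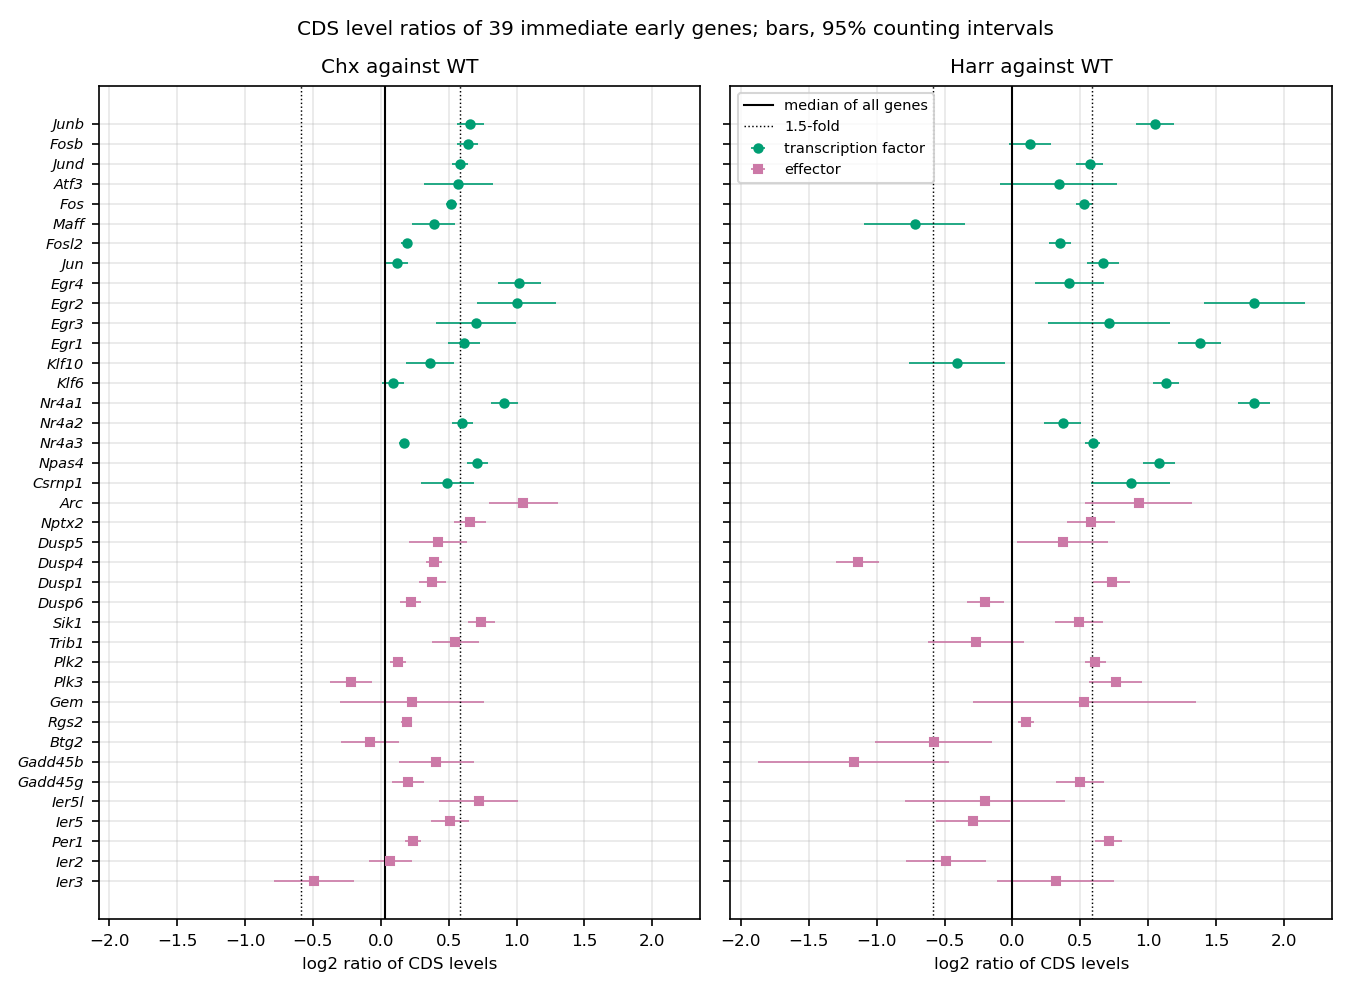
Log2 ratio of CDS levels for 39 IEGs, Chx against WT (left) and Harr against WT (right), ordered by role; each point is 1 gene, bars are 95% counting intervals, the solid line is the median of all genes and dotted lines mark 1.5-fold. All transcription factors lie to the right of 0 in the left panel, whereas in the right panel the points spread from -1.17 (Gadd45b) to 1.78 (Nr4a1 and Egr2).

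The second comparison set the Harr library against WT, which it shares with the comparison above. The level was at least 1.5-fold higher in Harr for 15 of 39 IEGs, against 20.2% of all genes, and at least 1.5-fold lower for 3 of 39, against 25.8% of all genes. The median log2 ratio was 0.50 over the IEGs and 0.00 over all genes. These numbers depend on the scale: per 1000000 aligned reads of the library, of which fewer fell into CDS in Harr, the median of all genes moved to -0.51 and that of the IEGs to -0.02. On that scale 4 of 39 IEGs were at least 1.5-fold higher, against 3.5% of all genes, and 10 were at least 1.5-fold lower, against 46.4% of all genes.

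Among the 35 IEGs with at least 200 reads in this pair, Nr4a1 (1.78 ± 0.06), Egr2 (1.78 ± 0.19) and Egr1 (1.38 ± 0.08) had the highest log2 ratios. Egr1 had 56.1 RPKM under Chx, 95.6 under Harr and 36.7 in WT. Klf6 (1.13 ± 0.05), Npas4 (1.08 ± 0.06) and Junb (1.05 ± 0.07) followed. At the other end were Dusp4 (-1.14 ± 0.08), Maff, a small MAF protein that lacks a transactivation domain (83.4, 38.2 and 63.5 RPKM in Chx, Harr and WT; -0.72 ± 0.19), and Btg2 (-0.58 ± 0.22). Of 19 transcription factors 10 were at least 1.5-fold higher and 1 lower, and of 20 effectors 5 were higher and 2 lower.

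The Harr ratios were also read against CDS length. Over all genes the median log2 ratio between Harr and WT ran from -0.75 for a CDS under 600 nucleotides to -0.52, -0.01, 0.44 and 0.77 in the classes up to 1200, 2000 and 4000 nucleotides and above. In the class from 600 to 1200 nucleotides, which holds 18 of the 39 IEGs, 17 lay above the median of all genes and their own median was 0.45. Taken relative to the median of their length class, the IEG ratios had a median of 0.65, that of the transcription factors being 1.05 and that of the effectors 0.29. On this scale 24 of 39 IEGs were at least 1.5-fold higher, against 14.8% of all genes, and 1 was at least 1.5-fold lower, against 16.8% of all genes. The shortest coding sequences contributed both low and high values: Gadd45b, of 483 nucleotides, had 17 CDS reads in Harr against 281 in Chx and 174 in WT (9.32, 28.8 and 21.6 RPKM), whereas the related Gadd45g, of 480 nucleotides, had 326 against 1427 and 1022.

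**Figure D3:**
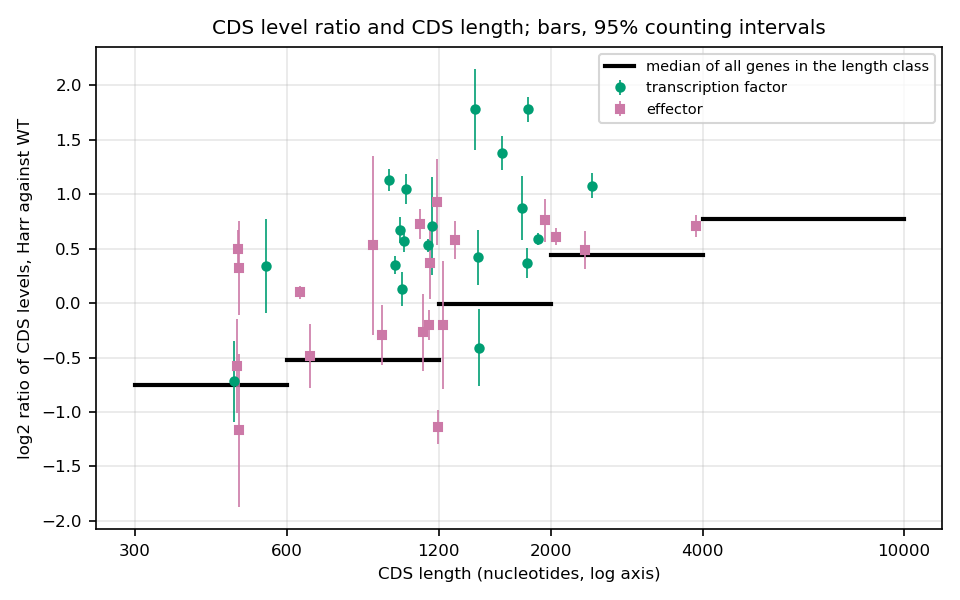
Log2 ratio of CDS levels between Harr and WT against CDS length on a log axis for 39 IEGs; bars are 95% counting intervals, and black lines are medians of all genes in 5 length classes, of which the first and last are open-ended. The class medians climb from -0.75 to 0.77, and 35 of 39 IEGs lie above the median of their class.

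Harr and Chx both received cycloheximide. The level was at least 1.5-fold higher in Harr for 6 of 39, against 17.5% of all genes, and at least 1.5-fold lower for 8 of 39, against 26.3% of all genes. The median log2 ratio was -0.01 over the IEGs and -0.05 over all genes. These values depend on the scale and on CDS length. Per aligned read the IEG median was -0.56 and that of all genes -0.60, with 0 of 39 IEGs at least 1.5-fold higher, against 2.72% of all genes, and 19 at least 1.5-fold lower, against 50.5% of all genes. Per CDS read and centred on the median of all genes in the same length class, the IEG median was 0.45, and 27 of 39 lay above their class. After centring, 12 were at least 1.5-fold higher, against 15.2% of all genes, and 5 at least 1.5-fold lower, against 15.6% of all genes. Without centring, Klf6 (1.04 ± 0.05), Plk3 (0.98 ± 0.10) and Nr4a1 (0.87 ± 0.05) were highest, and Gadd45b (-1.59 ± 0.36), Dusp4 (-1.52 ± 0.08) and Maff (-1.12 ± 0.18) were lowest. Per CDS read, 16 of the 39 genes had their highest level in Harr and their lowest in WT, 11 ran from Chx over Harr to WT, and 9 ran from Chx over WT to Harr. Per aligned read these numbers were 5, 12 and 19, the 5 being Egr1, Egr2, Jun, Klf6 and Nr4a1. The shares of all genes with these orders were not computed, so no order is read as particular to IEGs. Counting error alone separates some of these orders poorly, as for Gem, a small GTPase of the RGK family with 67, 15 and 47 CDS reads.

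The second question was how IEG footprints were divided between 5′ UTR and CDS. Summed over the 43 genes, the 5′ UTR held 10.6% of reads under Chx (Wilson 95% interval 10.4 to 10.8), 37.4% under Harr (37.0 to 37.9) and 8.55% in WT (8.36 to 8.74). The corresponding shares over all genes were 8.71%, 33.5% and 6.14%. Summed by class, the transcription factors had 13.3%, 39.8% and 10.9% in Chx, Harr and WT, compared with 6.63%, 32.9% and 5.42% for effectors. In each class 1 gene weighs heavily on the sum. Without Nr4a3 the factors had 10.2%, 35.3% and 7.28%, and all IEGs had 8.55%, 34.3% and 6.35%. Without Rgs2, the effector with the most reads, which was left out after the values were seen, the effectors had 9.02%, 41.1% and 7.34%, so that in Harr the order of the classes turned. With both genes left out it turned in Harr and, with 7.34% for effectors beside 7.28% for factors, also in WT.

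The number of 5′ UTR reads per CDS read was higher in Harr than in WT for 38 of 39 IEGs (the plot of 5′ UTR reads per CDS read), and the odds ratio was above 1 for 99.0% of all genes. Its median over the 39 genes was 0.0941 under Chx, 0.614 under Harr and 0.0554 in WT, and in Harr it was 0.609 over the factors and 0.627 over the effectors. In no IEG did 5′ UTR reads outnumber CDS reads in Chx or WT, whereas they did so in Harr for 14 of 39, against 30.7% of all genes. Of the 14, 7 were transcription factors and 7 effectors. Trib1, a pseudokinase that scaffolds ubiquitin ligase substrates, was the extreme, with 326 5′ UTR reads and 742 CDS reads under Chx, 399 and 78 under Harr, and 196 and 418 in WT. Its ratio of 5′ UTR to CDS reads was 0.439 under Chx, 5.12 under Harr and 0.469 in WT.

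**Figure D4:**
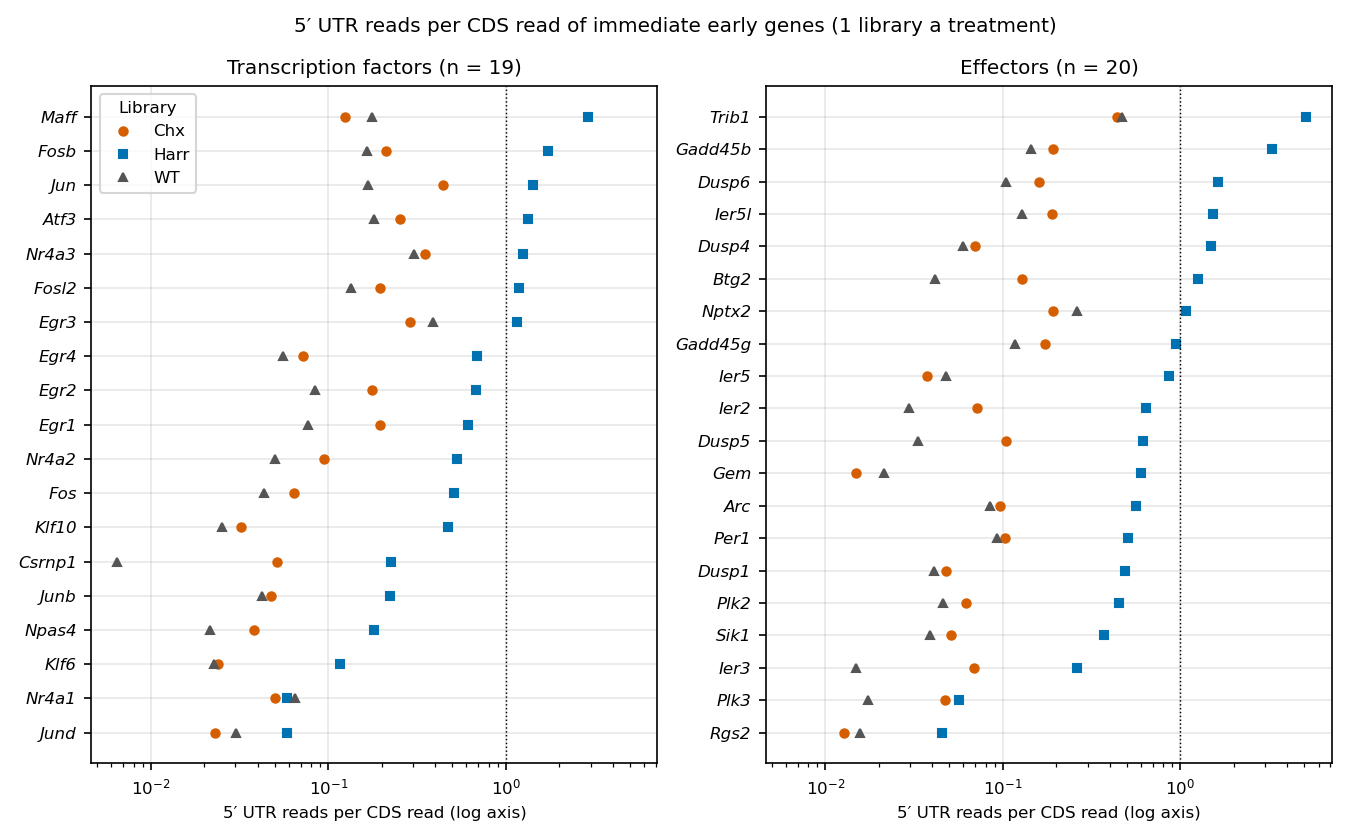
5′ UTR reads per CDS read on a log axis for 19 transcription factors and 20 effectors, each point being 1 library; the dotted line marks equal numbers. Harr lies to the right of Chx and WT in every row apart from Nr4a1, where the 3 values are 0.0502 (Chx), 0.0585 (Harr) and 0.0647 (WT).

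The odds ratio of 5′ UTR to CDS reads in Harr against WT was at least 2 for 37 of 39 IEGs, against 96.0% of all genes, with a median log2 odds ratio of 3.29 against 3.23. In Harr against Chx it was at least 2 for 37 of 39, against 92.1% of all genes, with a median of 2.54 against 2.46. In Chx against WT it was at least 2 for 9 of 38, against 34.7% of all genes, with a median of 0.40 against 0.67. The share of IEGs was thus near that of all genes in the pairs with Harr and below it between Chx and WT.

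The highest log2 odds ratios between Harr and WT were those of Btg2 (4.87 ± 0.49), Csrnp1, a nuclear protein rich in cysteine and serine (4.83 ± 0.96), and Dusp4 (4.64 ± 0.14). Dusp4 had 389 5′ UTR and 5615 CDS reads under Chx, 541 and 364 under Harr, and 211 and 3544 in WT. Its 5′ UTR count in Harr was thus the highest of the 3 libraries while its CDS count was the lowest. Csrnp1 rests on 2 5′ UTR reads in WT, beside 27 in Chx and 29 in Harr, with 14.9, 19.4 and 10.6 RPKM in the CDS of Chx, Harr and WT. Between Harr and Chx the highest were Gem (4.79 ± 1.33, from 1 and 9 5′ UTR reads in Chx and Harr), Ier5 (4.52 ± 0.29) and Maff (4.52 ± 0.25). Ier5 had 43 5′ UTR and 1154 CDS reads under Chx, 106 and 123 under Harr, and 32 and 666 in WT, or 61.6, 35.2 and 43.1 RPKM in the CDS. Maff had 99 and 794 under Chx, 197 and 68 under Harr, and 88 and 499 in WT.

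Between Chx and WT the highest log2 odds ratios belonged to Csrnp1 (2.69 ± 0.96), Ier3 (2.05 ± 0.89) and Dusp5, another MAP kinase phosphatase (1.60 ± 0.50), each with 10 or fewer 5′ UTR reads in WT. Dusp5 had 20.9, 20.2 and 15.6 RPKM in the CDS of Chx, Harr and WT. Jun (1.39 ± 0.10) and Egr1 (1.34 ± 0.19) rested on more reads. Jun, whose 5′ UTR is 951 nucleotides long and holds no ATG, had 1184 5′ UTR reads under Chx, 1044 under Harr and 343 in WT. Egr1, with 1666 nucleotides of 5′ UTR and 11 ATGs in it, had 355, 352 and 75. Both had about as many 5′ UTR reads in Chx as in the shallower Harr library. The lowest were Maff (-0.50 ± 0.23), Nptx2 (-0.45 ± 0.13) and Egr3 (-0.45 ± 0.29, with 11.9, 11.8 and 7.27 RPKM in the CDS). This order holds for the longest transcripts. On the transcript with the most reads, Egr3 was at -0.07 ± 0.26, and Nr4a1 was at 2.63 ± 0.49 in place of -0.37 ± 0.21.

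Nr4a1, Jund and Rgs2 had the lowest odds ratios between Harr and WT. For Jund the log2 odds ratio was 0.95 ± 0.25, with 58 5′ UTR reads in Harr beside 123 in Chx and 90 in WT. For Nr4a1 it was -0.14 ± 0.26, and between Harr and Chx it was 0.23 ± 0.24, below that of Plk3 (0.29 ± 0.45). The Nr4a1 value depends on the transcript. The longest transcript begins with 2 distal noncoding exons at chr15:101254269-101254351 and chr15:101258308-101258426 (mm10, plus strand), which held 65 and 71 reads under Chx, 28 and 25 under Harr, and 36 and 41 in WT. The transcript with the most reads begins instead with a noncoding exon of 126 nucleotides at chr15:101266846-101266971, which held 133 reads under Chx, 188 under Harr and 9 in WT. With it, the Nr4a1 log2 odds ratio was 4.69 ± 0.48 between Harr and WT, 2.06 ± 0.17 between Harr and Chx and 2.63 ± 0.49 between Chx and WT, where the longest transcript gives the opposite sign. Per nucleotide the proximal exon was read at 70.4% of the CDS density under Chx, 292% under Harr and 10.8% in WT, and the distal exons at 52.2% and 39.8%, 66.0% and 41.1%, and 65.8% and 52.2%. Harr thus stood far above WT in the proximal exon and no higher than 66.0% in the distal ones. For the other receptors the longest transcript was also the one with the most reads, and the 2 upstream exons of Nr4a2 held 207 and 98 reads under Chx, 159 and 121 under Harr, and 68 and 23 in WT.

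Nr4a3 carried the most 5′ UTR reads of any IEG, 4024 under Chx, 3564 under Harr and 2555 in WT, beside 11431, 2858 and 8398 in the CDS. Its first exon, wholly noncoding and 564 nucleotides long (chr4:48045153-48045716, mm10, plus strand), held 3377, 3049 and 2141 of them. Per nucleotide this exon was read at 98.7% of the CDS density under Chx, 356% under Harr and 85.2% in WT. The second exon, whose last bases are coding in another annotated Nr4a3 transcript, was read at 59.0%, 190% and 50.8%. The first exon holds 3 ATGs, each followed by a stop codon within the exon, which open upstream reading frames of 131, 11 and 47 codons. The 11-codon frame is the end part of the 131-codon frame and shares its stop codon. Capitals mark these ATGs in the sequences that follow.
Nr4a3 upstream ATG of the 131-codon frame, chr4:48045153-48045171: ataaATGacgtgccgagag
Nr4a3 upstream ATG of the 11-codon frame, chr4:48045511-48045531: gactggATGcctgcggaacct
Nr4a3 upstream ATG of the 47-codon frame, chr4:48045543-48045563: tctcccATGagttgggatcgc

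The tables give no positions within an exon, so reads were not assigned to any of these frames. None of the 3 ATGs has a purine at the third base before it or a G directly after it. Dusp6, a cytoplasmic phosphatase of ERK, had a like abundance of 5′ UTR reads in Harr, with 528 under Chx, 750 under Harr and 242 in WT beside 3292, 461 and 2338 in the CDS. Its 5′ UTR holds a single ATG, which opens a frame of 8 codons shown here with its first and last codon in capitals.
Dusp6 upstream frame, chr10:99263634-99263660, plus strand: ATGcctgcctcgaggggcgtctgcTAG

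The last question was where within the CDS the Harr reads lay. For the 36 IEGs with more than 1 coding segment, reads in the first and last segments were compared. Between Harr and Chx, 30 had at least 20 reads in each, and the log2 ratio of first to last segment had a median of -1.11, against -0.54 over 6260 genes. It was lower in Harr beyond the 95% counting interval for 19 of 30, against 39.7% of all genes, and higher for 5 of 30, against 18.2% of all genes. The set of all genes was matched neither for CDS length nor for segment number or length. Between Chx and WT the first segment was the higher one beyond that interval for 16 of 29 IEGs, against 45.4% of all genes.

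The ratio between Harr and Chx was lowest for Sik1 (-2.57 ± 0.32), Nr4a2 (-2.36 ± 0.21) and Plk2 (-2.34 ± 0.17). Plk2 had 1197 reads in its first and 455 in its last segment under Chx, 147 and 283 under Harr, and 772 and 336 in WT, so that the order of the segments turned in Harr. Nr4a3 had 6738 and 1004 under Chx, 769 and 474 under Harr, and 4885 and 933 in WT. Among the 5 that went the other way, Maff (2.46 ± 0.37) and Rgs2 (2.12 ± 0.08) stood highest, followed by Ier3 (1.70 ± 0.45), Btg2 (1.01 ± 0.48) and Klf6 (0.38 ± 0.19). Their first segments run from 36 nucleotides in Maff to 210 in Ier3. Segments in this range also occur in genes with a ratio below 0, such as Sik1 (156 nucleotides) and Fosb (126 nucleotides, -2.18 ± 0.30). A part of segment length in the ratio was not tested.

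**Figure D5:**
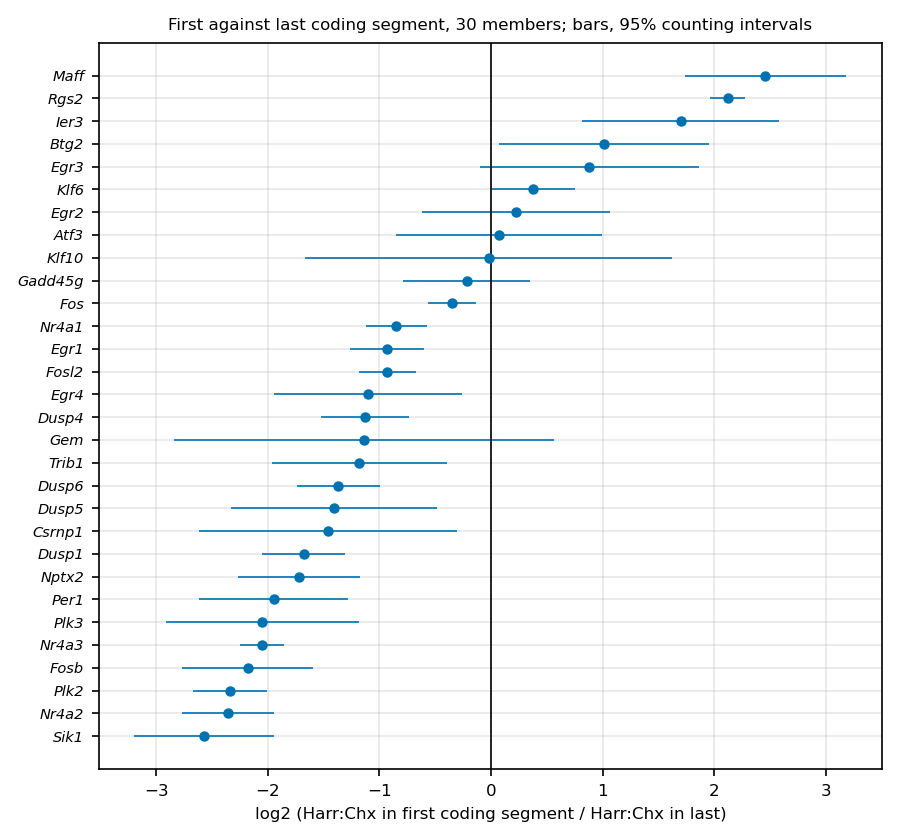
Log2 ratio of the Harr:Chx count ratio in the first coding segment to that in the last, for 30 IEGs; bars are 95% counting intervals and the line marks 0. Most genes lie left of 0, down to -2.57 for Sik1, while Maff and Rgs2 lie at 2.46 and 2.12.

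Rgs2 combined this pattern with few 5′ UTR reads. Its 5′ UTR is 43 nucleotides long and held 206 reads under Chx, 128 under Harr and 182 in WT. The first coding segment, of 110 nucleotides, held 2952 reads under Chx, 1699 under Harr and 1874 in WT, and the last held 4399, 584 and 3863. In Harr the first segment thus held 1699 of 2820 CDS reads. Besides the annotated start codon this segment has in-frame ATGs at codons 5, 16 and 33, and alternative initiation at such codons is known for RGS2. They are shown in capitals with the bases around them, and the window of codon 33 spans an intron.
Rgs2 codon 5, chr1:144004092-144004118, minus strand: atgcaaagtgccATGttcctggctgtc
Rgs2 codon 16, chr1:144004059-144004085, minus strand: gactgcgtacccATGgacaagagtgca
Rgs2 codon 33, chr1:144003053-144004034, minus strand: aagcgggagaaaATGaagcggacactc

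The segment tables cannot place the reads at any of these ATGs. Klf6, whose first segment of 204 nucleotides held 873 of 1391 CDS reads in Harr, 1357 of 3624 in Chx and 841 of 2811 in WT, has in-frame ATGs at codons 35 and 40. Of the other 3 genes with a higher ratio, Ier3 has one at codon 11 and Btg2 at codon 9, and Maff, which had the highest ratio, has none after its start codon in the first segment. Such ATGs were searched only in the genes with a higher ratio. Genes with a ratio below 0 hold them too, such as Sik1 and Dusp1 within a few codons of the start. A link between such ATGs and the ratio was not tested.

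The 3′ UTR of the IEGs held few reads outside Harr. Its share was 0.452% under Chx (0.417 to 0.489), 4.40% under Harr (4.20 to 4.60) and 0.993% in WT (0.928 to 1.06), compared with 1.71%, 4.10% and 2.18% over all genes. For 29 IEGs with enough reads the median log2 odds ratio of 3′ UTR to CDS between Harr and Chx was 3.92, against 3.76 over all genes. Fos had the most such reads in Harr, 403 beside 45 in Chx and 76 in WT, or 10.2% of its reads there. Nr4a3 had 15, 187 and 36 3′ UTR reads in Chx, Harr and WT, and Rgs2 had 160, 226 and 250.

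AU-rich elements in a 3′ UTR recruit decay factors such as the product of Zfp36. The nonamer TTATTTATT, searched on the transcript strand with overlapping matches counted, was present in 9 of 42 IEG 3′ UTRs (21.4%). With at least 100 CDS reads, which leaves out Fosl1, Klf2, Klf4 and Zfp36, it was present in 8 of 38 (21.1%), against 8.69% of all genes. Among those with a 3′ UTR of 500 to 2500 nucleotides it was present in 6 of 31 (19.4%), against 7.13%. The 9 were Fosl2, Fos, Plk2, Dusp1, Maff, Per1, Plk3, Csrnp1 and Zfp36. The match in Fos, with the nonamer in capitals, is given as an example together with the first of 2 in Dusp1. Dusp1 is a nuclear phosphatase of MAP kinases with 109, 139 and 83.7 RPKM in Chx, Harr and WT.
Fos, chr12:85477103-85477131, plus strand: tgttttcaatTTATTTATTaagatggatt
Dusp1, chr17:26506159-26506187, minus strand: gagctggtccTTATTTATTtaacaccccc

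The CDS levels of further members were in the range of the others. Per1, a repressor of the circadian clock, had 53.8, 74.5 and 45.6 RPKM in Chx, Harr and WT. Atf3, a stress-induced bZIP factor, had 32.7, 27.7 and 22.0. Ier2, another nuclear IEG product, had 60.9, 41.0 and 57.9. Nr4a2 had 92.2, 78.7 and 60.9 RPKM, and Sik1 had 45.4, 37.9 and 27.1, both highest in Chx on either scale. Klf10, a TGF-beta-inducible zinc finger factor, had 23.3, 13.6 and 18.2, Trib1 had 32.8, 18.5 and 22.4, and Ier5l had 11.3, 5.86 and 6.83, all 3 lowest in Harr.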

How the data were processed

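Ribosome footprints of mouse cortical neurons were analysed from 3 libraries, grouped by the treatment label. For every library the authors provide a table of each region, 9 in all. Per the file headers these hold counts (whole, unnormalized reads of an exon segment), a coverage signal (counts over segment length, deposited with them) and RPKM as the authors scaled it, to 1000000 reads. Per the file headers, reads of 25 to 100 nucleotides aligned to mm10, without ribosomal reads and duplicates, were counted at the 5′ end with offset 0. Only counts were used here. Start-codon footprints therefore fall into the 5′ UTR, and where the 5′ UTR part of the start exon is a few bases long they fall into the exon upstream of it.

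Identifiers were joined to symbols with GENCODE M21 (99.4% of 142446 matched), segments were summed, and the longest transcript with 3 regions was kept. Sequences are those of the GENCODE M21 transcripts whose length equals that of the 3 regions. The word search for sequence shared with other genes used 25 bases. CDS levels were scaled to CDS reads. CDS ratios needed at least 100 CDS reads in the 3 libraries, and odds ratios at least 10 reads per region in a pair, with 0.5 added to each count. Header totals were 35722483 reads under Chx, 9754412 under Harr and 30219197 in WT. A count of 3, the limit that 0 reads allow, corresponds to 0.148, 0.795 and 0.180 reads per 1000000 CDS reads. Intervals (95%, Poisson or Wilson) cover counting error only. With 1 library a treatment no test was run, and lists are described by counts and medians beside all genes.

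The genes named with values were the 12 with the highest mean level, the 3 highest and 3 lowest in each pair by CDS ratio (at least 200 reads in the pair) and by odds ratio, and further members by role. The members, the lists and this rule were chosen with earlier results of these data known. The ratio code was tested on simulated data. Python 3.11.15, numpy 2.4.6, pandas 2.3.3, scipy 1.17.1, bedtools 2.31.1 and matplotlib 3.10.9 were used. Alternatives were the library scale, transcript, minimum, pseudocount, threshold, CDS length class, upstream exons alone, UTRs free of overlap with a CDS of another gene, and the members without Nr4a3.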

Additional observations from a re-analysis of the deposited data

How the results depend on the processing

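No paired analysis was possible because each treatment has 1 library, and for the same reason no replicate could be left out. Of 126 values computed under alternatives for the counts, medians and shares, 96 stayed near the reported value. With the transcript of the most reads, all 129 levels of single genes stayed near the reported level, which was largely fixed in advance. That transcript differed from the longest only for Egr3 and Nr4a1, and Nr4a1 kept the same CDS reads. Only Egr3 had other CDS reads. Its level was 10.9 RPKM under Chx, 9.5 under Harr and 6.97 in WT, beside 11.9, 11.8 and 7.27 with the longest transcript. At 2-fold the higher CDS levels numbered 2 (Chx against WT), 6 (Harr against WT) and 1 (Harr against Chx), with 3 lower in the last. Per 1000000 aligned reads, Harr against WT had 4 higher and 10 lower with a median of -0.02, which turned its sign, and Harr against Chx had 0 higher and 19 lower with a median of -0.56. Centred on CDS length class, Harr against WT had 24 higher and 1 lower, and Harr against Chx had 12 higher and 5 lower with a median of 0.45, which turned its sign, as did 0.01 with median-of-ratios factors. A higher 5′ UTR:CDS ratio at 4-fold was found for 2 IEGs (Chx against WT). With exons upstream of the start exon alone, which leaves 7 members, it was found for 0 (Chx against WT, median 0.73), 6 (Harr against WT) and 6 (Harr against Chx). Shares of all genes at 2-fold, at 4-fold and with upstream exons alone were not computed, so these counts cannot be set against a background. Without Nr4a3 the shares in Chx, Harr and WT were 8.55%, 34.3% and 6.35% for the 5′ UTR, 90.9%, 61.0% and 92.6% for the CDS, and 0.499%, 4.69% and 1.09% for the 3′ UTR. Harr was the shallowest library, and its low counts are the least precise. Up to 4.99% of the 25-base words of a member (Zfp36) recur in transcripts of another gene, so reads of Zfp36 and Klf4 (3.03%) are the least certain.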
